A study of Mus musculus with 6 samples.

Results

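The genes described here encode the translation initiation factors, the proteins that bring the initiator tRNA, the mRNA and the ribosomal subunits together at the start codon. They were taken from the deposited gene table by name: every symbol that begins with Eif followed by a digit from 1 to 6, without the 4 eIF2 alpha kinases and without the 7 names marked as pseudogenes. This left 52 of the 34745 genes in the table, and 49 of the 12967 genes that had enough counts to be tested. The 3 members not tested were at 0 counts in all 6 libraries. They were Eif4e1b, a relative of the cap-binding protein, Eif2s3y, the Y-linked copy of an eIF2 subunit, in cells whose donors are labelled female, and Eif2c5, Eif2c being an old name of the Argonaute genes and not of initiation factors. A count of 0 allowed up to 0.110 to 0.154 CPM (a count scaled by the size of its library) there, a limit of 3 counts that covers counting error only.

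RNA was sequenced from mouse CD4 T cells in 2 groups of 3 libraries. All cells were naive CD4 T cells from spleens of female C57BL/6 mice aged 6 weeks, stimulated on plates coated with antibodies to CD3 and CD28 for 4 days in a Th17 mixture of IL-6 (20 ng/ml), IL-23 (10 ng/ml), TGF-beta (2 ng/ml), IL-2 (5 ng/ml) and antibodies to IFN-gamma and IL-4 (5 µg/ml each). The PM2.5 group received airborne fine particulate matter at 100 µg/ml 6 h after stimulation, and the PBS group received PBS as a mock treatment. The sources used here do not give the origin of the particles or the number of mice, nor whether the libraries came from separate cultures. The p-values therefore measure only how these samples spread, and that spread may be technical.

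In the usual pathway, eIF2 carries the initiator tRNA to the small ribosomal subunit, where eIF1, eIF1A, eIF3 and eIF5 assemble with it. The eIF4F complex, made of the cap-binding protein eIF4E, the scaffold eIF4G and the helicase eIF4A, recruits the capped mRNA, and the 4E-binding proteins block it by occupying eIF4E. Cells tune the process at eIF2, which its kinases phosphorylate under stress so that its exchange factor eIF2B is inhibited, and at the 4E-binding proteins, which mTORC1 switches off; T cells raise translation strongly when they are activated.

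Library totals ran from 19511561 to 27215853 counts, and the PM2.5 libraries, from 25397965 counts, were all deeper than the PBS libraries, up to 22353131 counts. The 6 CD4 T cell marker genes, Cd4 and Cd3e among them, were detected in every library, and their summed level was 1902 to 1926 CPM in the PBS group and 1207 to 1216 CPM in the PM2.5 group, each gene being lower under PM2.5. The summed Th17 markers stood at 3251 to 3294 against 2282 to 2754 CPM. Markers of other cells were low: B cell genes summed to at most 1.34 CPM with Ms4a1 at 0, macrophage genes to at most 5.82 CPM with Lyz2 at 0, neutrophil genes to at most 6.27 CPM with S100a8 and S100a9 at 0, CD8 T cell genes to at most 11.5 CPM, dendritic cell genes to at most 0.671 CPM, NK cell genes to at most 0.0766 CPM and erythroid genes to at most 0.135 CPM. Each of these sums except that of NK cells had its highest value in the PBS group. In bulk RNA, fewer cells of a type and less RNA per cell cannot be told apart, and the part of either in the results that follow was not tested.

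Most initiation factor genes were higher in the PM2.5 group. By edgeR's quasi-likelihood test with adjustment over all genes, 36 of the 49 were called higher, 73.5% of them against 35.2% of all genes tested, and 4 were called lower, 8.16% against 35.3% of all genes. The 40 called in either direction are 81.6% of the members, against 70.6% of all genes, and the libraries of the 2 groups did not overlap for 43 members (87.8%, against 74.9% of all genes). The median log2 fold change was 0.31 over the members, a 1.24-fold rise, and -0.01 over all genes. Most of the changes were small: 7 of the called members changed by under 0.2 on the log2 scale, 13 by 0.2 to 0.5, 14 by 0.5 to 1 and 6 by at least 1. The share that was called and reached 2-fold, 12.2%, stood beside 18.9% of all genes. All 6 of these were higher in PM2.5: Eif4ebp1, Eif2s2, Eif3c, Eif5, Eif4enif1 and Eif3g. The split differed between settings. It was the same with the size factors of DESeq2 in place of TMM scaling. With library totals in place of TMM scaling, with only genes of at least 5 CPM, or with limma on the deposited FPKM, all of which lowered the log2 fold changes of all genes by a median of 0.06 to 0.07, it was 32 higher and 9 lower.

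**Figure D1:**
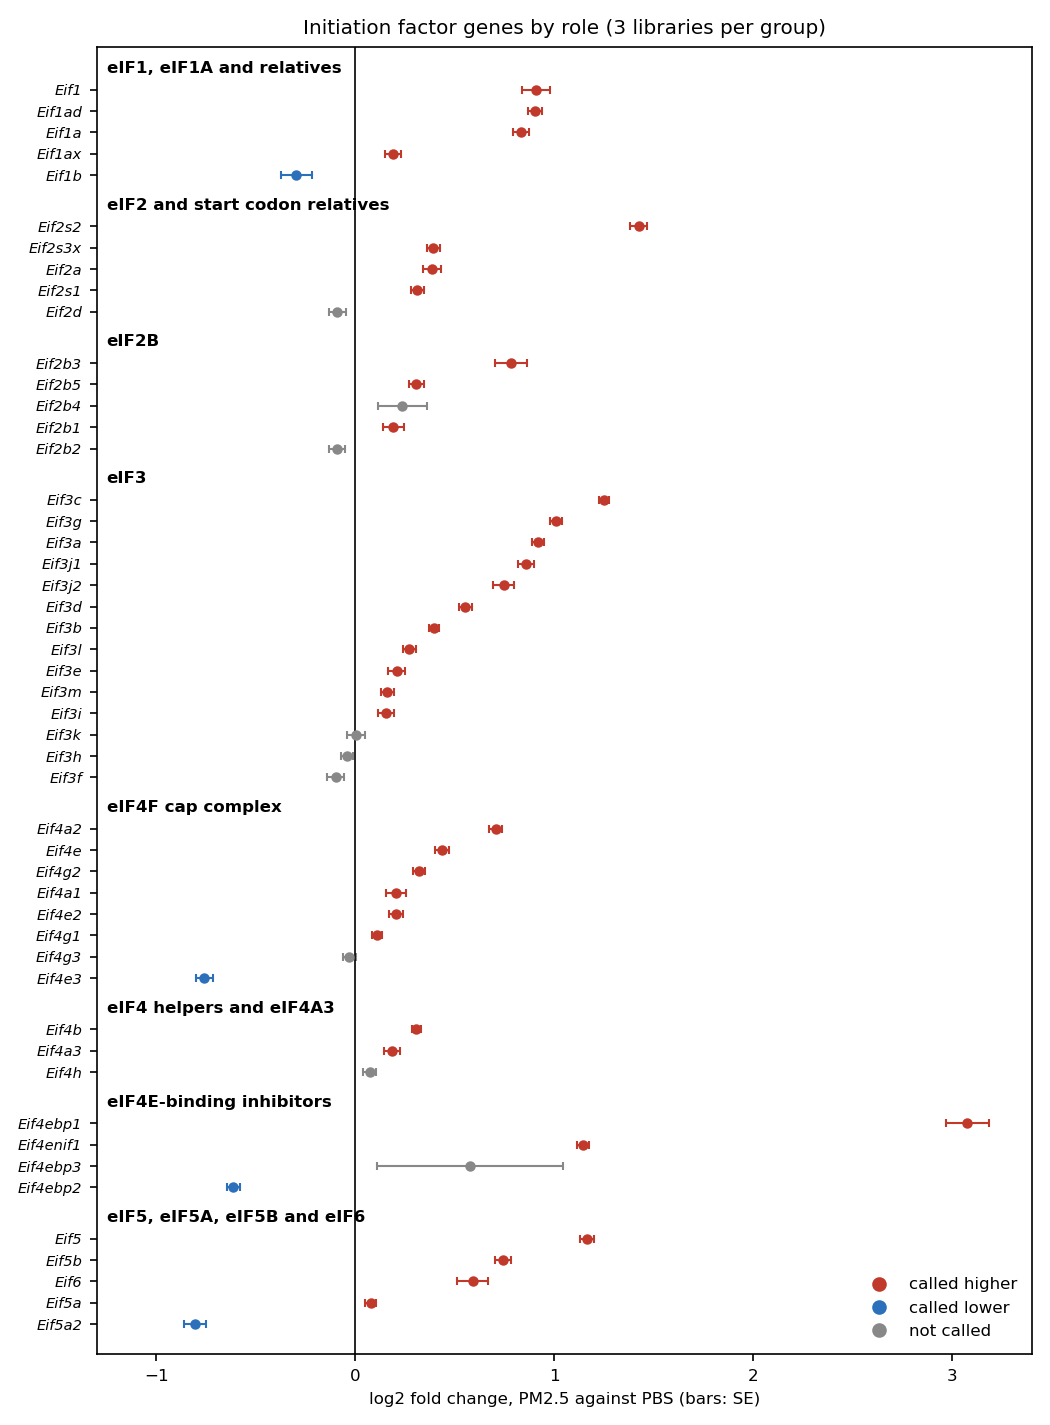
The log2 fold change of PM2.5 against PBS is plotted for the 49 tested members, grouped by role, with bars for the standard error and colour for the call (red higher, blue lower, grey not called). Eif4ebp1 lies far to the right of the rest at 3.08, and the 4 blue points, Eif1b, Eif4e3, Eif4ebp2 and Eif5a2, each sit in a different family.

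The promoters were read for 2 short motifs: the E-box CACGTG, the site that Myc with its partner Max, and several other factors, are known to bind, and TGATGNAA, the core of the element bound by the stress factor ATF4 with its partners. Windows of 250 bases before the RefSeq start (GRCm38.p6) were searched on both strands, and 38 of the 49 tested members had a window. Eif1a, Eif2b3, Eif3e, Eif3h, Eif3i, Eif3j2, Eif4ebp1, Eif4ebp3, Eif4e3, Eif4g2 and Eif6 were not searched, so the counts of matches say nothing of them. CACGTG was present in 9 of the 38 searched (23.7%), against 6.86% of the 27025 genes with a window, and TGATGNAA in 1 (2.63%, against 3.91%). The members counted here were all tested, whereas the 27025 genes were taken whether or not they were tested, so the 2 sets are not alike. The share among all tested genes was not taken. The 30 bases around one match in each gene are shown so that the matched letters can be read in place, on the strand of the gene, 5′ to 3′, with the match in capitals. They come from Eif1b at chr9:120492570-120492599 (plus strand), Eif3f at chr7:108934335-108934364 (plus), Eif3k at chr7:28981915-28981944 (minus), Eif4a1 at chr11:69672595-69672624 (minus), Eif4e at chr3:138527192-138527221 (plus), Eif4g1 at chr16:20672661-20672690 (plus), Eif4h at chr5:134639488-134639517 (minus), Eif5a at chr11:69921443-69921472 (minus), Eif5a2 at chr3:28781148-28781177 (plus) and, for TGATGNAA read on the opposite strand, Eif2s3x at chrX:94212729-94212758 (minus).
Eif1b: cgtgcggacggtCACGTGgcggcggcgcgc
Eif3f: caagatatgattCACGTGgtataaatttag
Eif3k: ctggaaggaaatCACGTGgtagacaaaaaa
Eif4a1: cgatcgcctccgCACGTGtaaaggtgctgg
Eif4e: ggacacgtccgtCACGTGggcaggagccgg
Eif4g1: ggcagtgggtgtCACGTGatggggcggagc
Eif4h: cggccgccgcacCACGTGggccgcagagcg
Eif5a: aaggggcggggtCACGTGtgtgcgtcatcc
Eif5a2: cagggcgagcttCACGTGacggggcgggac
Eif2s3x: ttcgccatcatTTTCATCAggtctatgccg

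Of the 9 members with CACGTG, 4 were called higher, 2 lower and 3 in neither direction, with a median log2 fold change of 0.07, and none reached 2-fold. Of the 29 members whose window lacked it, 24 were called higher, 1 lower and 4 in neither direction, with a median of 0.38, and 5 reached 2-fold. Eif4ebp1, the member with the largest change, is in neither set. Over all genes tested, 35.2% were called higher, 35.3% were called lower, and 18.9% were called and reached 2-fold. The CACGTG matches shown lay 19 to 189 bases before the start. The log2 fold changes of the 9 ran from -0.81 (Eif5a2) to 0.44 (Eif4e). A match is a description of the sequence and shows no binding.

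The eIF2 genes rose, and 1 of the 3 subunits rose far more than the other two. Eif2s2 encodes eIF2 beta, which binds eIF5 and eIF2B (ENSMUSG00000074656, mm10 chromosome 2, 154871410 to 154892935). It stood at 126.5, 137.9 and 123 CPM in the PBS libraries and at 342, 350.3 and 346 CPM in the PM2.5 libraries. The groups were far apart, and the change was 2.68-fold (log2 1.42, SE 0.04, adjusted p = 7.04e-10). Eif2s1 encodes eIF2 alpha, the subunit that the stress kinases phosphorylate, and was measured at 165, 173 and 164 CPM against 208, 210.0 and 204 CPM, 1.24-fold higher (adjusted p = 1.09e-05). Eif2s3x, the X-linked gene of eIF2 gamma, which binds GTP and the initiator tRNA, rose 1.31-fold. Per kilobase of transcript, with 1 transcript length per gene, the 3 subunits stood at 49.1 (Eif2s1), 50.8 (Eif2s2) and 38.3 (Eif2s3x) CPM per kb under PBS. Under PM2.5 the level of Eif2s2 was 136 CPM per kb, above the 60.9 of Eif2s1 and the 50.2 of Eif2s3x. This order depends on the lengths used. By the deposited FPKM, which imply 12517 bases for Eif2s2, that gene was the lowest of the 3 in both groups. The FPKM of Eif2s2, Eif2s1 and Eif2s3x were 10.3, 49.4 and 35.7 in PBS replicate 1. In PM2.5 replicate 1 they were 26.7, 59.85 and 44.35. Among their relatives, Eif2a, a separate protein that can deliver initiator tRNA, rose 1.30-fold. Eif2d, which acts in reinitiation, had a log2 fold change of -0.09 (adjusted p = 0.0825) although its libraries did not overlap between groups. Reads of Eif2s2 and Eif2s3x are partly ambiguous, since 27.8% and 36.2% of the 50-base words of their transcripts also occur in other genes, mostly pseudogenes.

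The genes of eIF2B, the exchange factor that reloads eIF2 with GTP, changed less evenly. Eif2b3, of the gamma subunit, rose from 22.8 ± 1.71 to 39.2 ± 3.59 CPM (SD, n = 3; log2 0.78). Eif2b5, of the catalytic epsilon subunit, was at 113, 109 and 107 CPM in PBS and 137, 139 and 131 CPM in PM2.5, with no overlap and a change of 1.24-fold (adjusted p = 2.9e-05). Eif2b1, of the alpha subunit, which takes part in sensing phosphorylated eIF2, rose by 0.19 on the log2 scale, and this call was lost with library totals (0.13, adjusted p = 0.0602), with the 5 CPM filter and with limma. Eif2b2, of the beta subunit, stood at 95.8 ± 3.57 against 89.9 ± 3.24 CPM (log2 -0.09, adjusted p = 0.077), and was called lower with library totals (-0.16, adjusted p = 0.0088), in the other settings that gave 9 lower members, and without PBS replicate 2 or PM2.5 replicate 3. Eif2b4, of the delta subunit, was at 43.4, 38.2 and 53.7 CPM under PBS, with the third library as high as the PM2.5 libraries at 54.6, 53.7 and 51.2 CPM. Its log2 fold change of 0.24 did not pass (adjusted p = 0.135) and became 0.38 (adjusted p = 0.000739) without PBS replicate 3, while DESeq2 gave an adjusted p of 0.0475 with all libraries. Thus 3 of the 5 subunit genes were called higher, beside 35.2% of all genes tested, with a median of 0.24 over all 5.

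Among the genes of eIF1 and eIF1A, which hold the small subunit open for scanning and guard the choice of start codon, 4 of 5 rose and 1 fell. Of all genes tested, 35.2% were called higher and 35.3% lower. Eif1 was at 173, 166 and 165 CPM in PBS and at 336, 329.7 and 281 CPM in PM2.5, a rise of 1.88-fold (log2 0.91, SE 0.07, adjusted p = 1.51e-05). Its near copy Eif1b went the other way, from 24.8, 29.9 and 26.1 CPM to 21.8, 22.8 and 21.1 CPM (log2 -0.30, SE 0.08, adjusted p = 0.00598). The eIF1A genes both rose, by very different amounts. Eif1a was at 92.9, 98.6 and 95.4 against 166, 178 and 167 CPM (log2 0.83), and Eif1ax, a second gene for the same protein family, at 93.6, 96.2 and 91.3 against 106.7, 110.5 and 103 CPM (log2 0.19). Eif1ad, whose protein carries an eIF1A-like domain, was at 82.8, 84.9 and 80.8 CPM in PBS and 153, 156 and 155 CPM in PM2.5 (log2 0.90, adjusted p = 3.33e-09). None of these 5 genes overlapped between the groups, which was also so for 74.9% of all genes tested. Exons of Eif1ad overlap Banf1 on the opposite strand over 428 bases, and since the strand setting of the counting is not given, reads there could belong to either gene.

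The genes of eIF3, the largest initiation factor and the platform that holds the small subunit to the mRNA, did not move as a unit. Of 14 genes, 11 rose and none was called lower, with a median log2 fold change of 0.33, but the values ran from -0.10 to 1.25. Over all genes tested, 35.2% were called higher and 35.3% lower. Eif3c, of a core subunit that binds eIF1 and eIF5, rose most (ENSMUSG00000030738, chromosome 7, 126546455 to 126566411). It was at 632, 633 and 636 CPM in PBS and 1520, 1508 and 1494 CPM in PM2.5, 2.38-fold (log2 1.25, SE 0.02, adjusted p = 3.13e-11). Eif3g, of an RNA-binding subunit, was at 136, 134 and 130.3 CPM against 269, 267 and 268 CPM, 2.01-fold (log2 1.01, adjusted p = 7.07e-10). It lay just at the 2-fold limit and was under it, at 0.94, with library totals. Eif3a, of the subunit around which the complex is built, was at 894, 963 and 906 CPM against 1757, 1735 and 1725 CPM, 1.89-fold (log2 0.92). The 3 genes showed tight libraries and wide gaps between groups.

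Further eIF3 genes rose by less. Eif3d, whose product can bind the cap of some mRNAs, rose by 0.55 on the log2 scale and Eif3b, which joins the core to the RNA-binding subunits, by 0.40. Eif3l rose by 0.27, Eif3e by 0.21, Eif3m by 0.16 and Eif3i by 0.15, the last call being lost with library totals (0.09, adjusted p = 0.0758). The near-identical genes Eif3j1 and Eif3j2, of a loosely bound subunit, both rose without overlap. Eif3j1 was at 97.8, 103.7 and 94.6 CPM in PBS and 181, 182 and 173 CPM in PM2.5 (log2 0.86), and Eif3j2 at 31.8 ± 1.73 against 53.4 ± 0.569 CPM (log2 0.75). Since 90.8% of the 50-base words of Eif3j2 also occur in Eif3j1, the counts of the pair cannot be separated with confidence. On the opposite strand, exons of Eif3d overlap Gm17638 over 2151 bases and those of Eif3j1 overlap Spg11 over 1107 bases. Reads there could belong to either gene, as the strand setting of the counting is not given. The 3 genes that did not pass were Eif3f (log2 -0.10, adjusted p = 0.055), Eif3h (-0.04, adjusted p = 0.21) and Eif3k (0.00, adjusted p = 0.952). Of these, Eif3f and Eif3h were called lower with library totals (-0.16 and -0.11), and Eif3f also with a replicate block, without a filter on low counts, and without PBS replicate 2 or PM2.5 replicate 3.

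Set on 1 scale, the rise of a few subunits changed the order of the eIF3 genes. Under PBS, Eif3h was the most abundant at 365 ± 7.95 CPM per kb, followed by Eif3k at 226 ± 8.83, and Eif3a, Eif3c, Eif3d and Eif3e lay close together between 180 and 196 CPM per kb, with spreads that mostly met. Under PM2.5, Eif3c was first at 446 ± 3.77 CPM per kb, then Eif3h at 354 ± 5.69 and Eif3a at 339 ± 3.19. Eif3g went from 121 to 243 CPM per kb, past Eif3k, which stayed at 226. The lowest of the 12 genes other than Eif3j1 and Eif3j2 was Eif3m in both groups, at 108 and 120.3 CPM per kb, and the ratio of the highest to the lowest was 3.39 ± 0.125 under PBS and 3.71 ± 0.0776 under PM2.5. The levels rest on the length of 1 transcript per gene and on reads that could be assigned, which for Eif3m and Eif3h share 40.0% and 26.2% of their 50-base words with other genes. By the deposited FPKM, the highest and lowest of the 12 in PBS replicate 1 were Eif3h at 394.6 and Eif3m at 42.4. In PM2.5 replicate 1 they were Eif3c at 381.8 and Eif3i at 44.5, a smaller ratio. The lowest gene and the direction in which this ratio changed therefore depend on the lengths used.

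**Figure D2:**
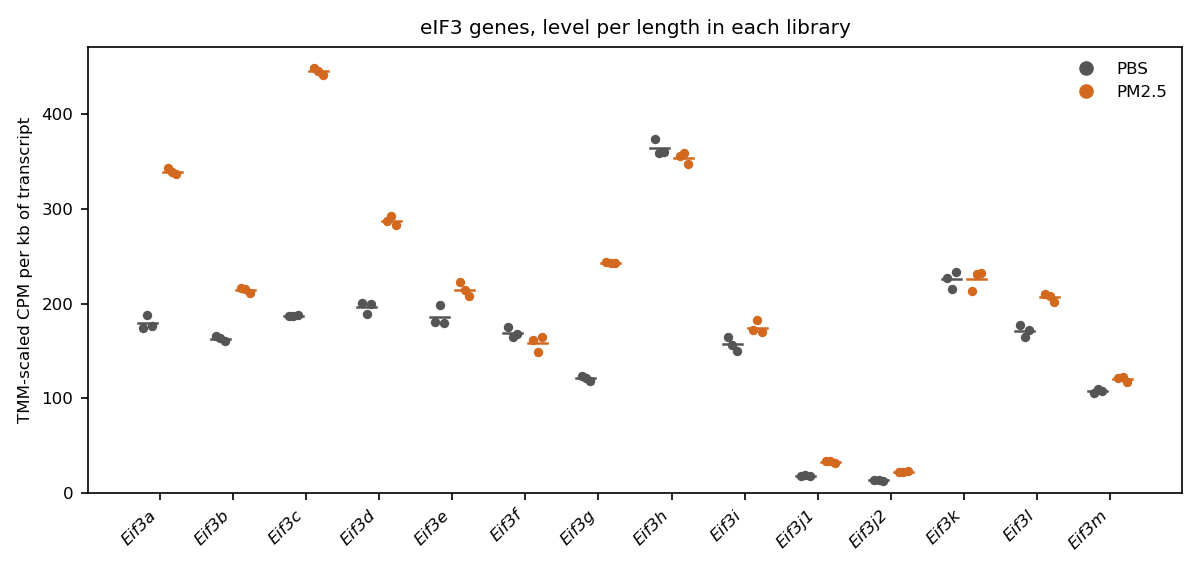
The level of each eIF3 gene is plotted per library as TMM-scaled CPM per kb of transcript, PBS in grey and PM2.5 in orange, with a line at the mean of 3 libraries. Eif3a, Eif3c, Eif3d and Eif3g separate widely between groups, whereas the points of Eif3f, Eif3h and Eif3k lie side by side and Eif3j1 and Eif3j2 stay at the bottom.

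Of the 8 tested genes of the cap complex eIF4F, 6 rose and 1 fell, and the median log2 fold change was 0.20. The shares over all genes tested were 35.2% called higher and 35.3% lower. Eif4e, the cap-binding protein, was at 129, 123 and 124 CPM in PBS and 174, 165 and 169 CPM in PM2.5 (1.35-fold, SE of the log2 value 0.04, adjusted p = 1.36e-06). Its relative Eif4e2, which binds the cap and takes part in repression, rose from 86.2, 87.0 and 85.9 to 101.4, 100.3 and 96.6 CPM (log2 0.20). Eif4e3, an atypical cap-binding relative, fell (ENSMUSG00000093661, chromosome 6, 99625135 to 99666771). Its libraries were at 83.2, 77.6 and 78.5 CPM under PBS and 46.7, 46.9 and 47.9 CPM under PM2.5, 1.69-fold lower (log2 -0.76, SE 0.04, adjusted p = 8.76e-08). The 3 cap-binding genes therefore had non-overlapping groups, as did 74.9% of all genes tested, 2 upward and 1 downward.

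Of the scaffold genes, Eif4g2 rose, while Eif4g1 and Eif4g3 changed little. Eif4g1, the main scaffold, was at 714, 705 and 714 CPM against 771, 769 and 758 CPM, a log2 fold change of 0.11 (adjusted p = 0.00255) that was not called with library totals (0.04, adjusted p = 0.135). Eif4g2, a scaffold that does not bind eIF4E, was at 1139, 1195 and 1129 against 1466, 1400 and 1452 CPM (log2 0.32), and Eif4g3 at 326, 328 and 315 against 309, 312 and 329 CPM, with overlapping groups (log2 -0.03, adjusted p = 0.442). Under library totals Eif4g3 was called lower (-0.09, adjusted p = 0.0253).

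The helicase genes differed in size of change. Eif4a2 rose from 233, 242 and 228 to 378, 386 and 382 CPM (1.63-fold, adjusted p = 1.21e-08), and Eif4a1 from 191, 206 and 182 to 215, 218 and 234 CPM (1.15-fold, log2 0.20, adjusted p = 0.00502). Eif4a1 shares 64.9% of its 50-base words with Eif4a-ps4, a processed pseudogene outside the set, and the pseudogene held 81.3 to 84.5% of the counts of the pair. Eif4a-ps4 alone was at 922, 894 and 897 CPM against 1172, 1147 and 1120 CPM. With both rows summed, an alternative chosen after seeing the data, the pair stood at 1098 ± 17.1 CPM in PBS and 1369 ± 16.8 CPM in PM2.5, and the log2 fold change of Eif4a1 became 0.32 (adjusted p = 1.08e-06). Of the helpers, Eif4b, which stimulates the helicase, rose by 0.31, while Eif4h, a second stimulator, had a value of 0.07 (adjusted p = 0.0858). Eif4a3, a helicase of the exon junction complex and not of eIF4F, rose by 0.18.

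The largest change of any member was in the genes of the 4E-binding inhibitors, and the 2 main inhibitors moved in opposite directions. Eif4ebp1 encodes 4E-BP1, which sequesters eIF4E until mTORC1 phosphorylates it, and is a known target of ATF4 (ENSMUSG00000031490, chromosome 8, 27260327 to 27275656). It was at 24.9, 18.2 and 20.95 CPM in PBS and at 178, 183 and 180.1 CPM in PM2.5, 8.43-fold higher (log2 3.08, SE 0.11, adjusted p = 9.43e-07). Eif4ebp2, the gene of 4E-BP2 (ENSMUSG00000020091, chromosome 10, 61432497 to 61452669), fell from 143.5, 142.9 and 146.7 to 93.1, 95.5 and 94.5 CPM (log2 -0.61, SE 0.03, adjusted p = 4.46e-08), 1.53-fold. Neither gene overlapped between groups, like 74.9% of all genes tested. Eif4ebp3 was near the limit of detection, with 5, 7 and 13 counts in PBS and 12, 23 and 9 in PM2.5 (adjusted p = 0.291). Eif4enif1 encodes the transporter 4E-T, which binds eIF4E and carries it to the nucleus and to processing bodies (ENSMUSG00000020454, chromosome 11, 3202392 to 3244588). It rose from 137, 142 and 137 to 302, 305 and 313 CPM, 2.21-fold (log2 1.14, SE 0.03, adjusted p = 4.34e-10).

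The summed inhibitors were set against their target at the level of RNA. The levels of Eif4ebp1, Eif4ebp2 and Eif4ebp3 per kb, added together, were 1.45, 1.40 and 1.48 times that of Eif4e in the PBS libraries and 3.04, 3.29 and 3.17 times in the PM2.5 libraries. Eif4ebp1 made up 33.2, 26.6 and 28.7% of the sum under PBS and 84.2, 83.8 and 84.3% under PM2.5. The predominant inhibitor transcript was thus Eif4ebp2 in every PBS library and Eif4ebp1 in every PM2.5 library. The size of these ratios and shares depends on the transcript lengths used. The deposited FPKM of Eif4ebp1, Eif4ebp2 and Eif4e were 25.9, 48.5 and 18.9 in PBS replicate 1. In PM2.5 replicate 1 they were 177.3, 30.1 and 24.3. The phosphorylation of the proteins, which decides whether they bind eIF4E, was not measured.

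Among the genes of subunit joining and later steps, 4 of 5 rose, against 35.2% called higher among all genes tested. Eif5 encodes the activator that makes eIF2 hydrolyse GTP at the start codon (ENSMUSG00000021282, chromosome 12, 111538101 to 111546753). It was at 308, 316 and 298 CPM in PBS and 706, 692 and 667 CPM in PM2.5, 2.24-fold (log2 1.16, SE 0.03, adjusted p = 5.35e-10). Eif5b, the GTPase that joins the large subunit, rose from 254 ± 13.6 to 424 ± 2.83 CPM (log2 0.74), although 1643 bases of its exons overlap Rev1 on the opposite strand. Eif6, which keeps the subunits apart and serves in ribosome assembly, was at 143, 118 and 143 CPM against 199.9, 208 and 201 CPM (log2 0.59, adjusted p = 0.000407), so 1 PBS library was lower than the rest of its group.

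The eIF5A genes, whose protein helps stalled ribosomes to elongate and to terminate, were very unequal in level. Per length, Eif5a was the highest of the member rows, at 490 ± 4.54 CPM per kb under PBS and 516 ± 11.4 under PM2.5. This rank depends on the transcript lengths used and on how reads were assigned. By the deposited FPKM, Eif3h stood above Eif5a, at 395 against 158 in PBS replicate 1. Eif4a1 summed with its pseudogene Eif4a-ps4 was at 1098 CPM in PBS and 1369 CPM in PM2.5. In CPM Eif5a was at 708, 707 and 696 against 731, 761 and 734, a log2 fold change of 0.08 (adjusted p = 0.0268). The call was lost in DESeq2 (adjusted p = 0.06), with library totals (0.01, adjusted p = 0.702), and without PBS replicate 1, PBS replicate 3 or PM2.5 replicate 2 (adjusted p = 0.0566, 0.085 and 0.104). Eif5a2, its rarer copy (ENSMUSG00000050192, chromosome 3, 28781276 to 28798846), fell from 36.8, 38.1 and 35.6 to 21.1, 21.4 and 20.7 CPM, 1.75-fold (log2 -0.81, SE 0.06, adjusted p = 3.55e-07). This was the largest fall among the members.

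**Figure D3:**
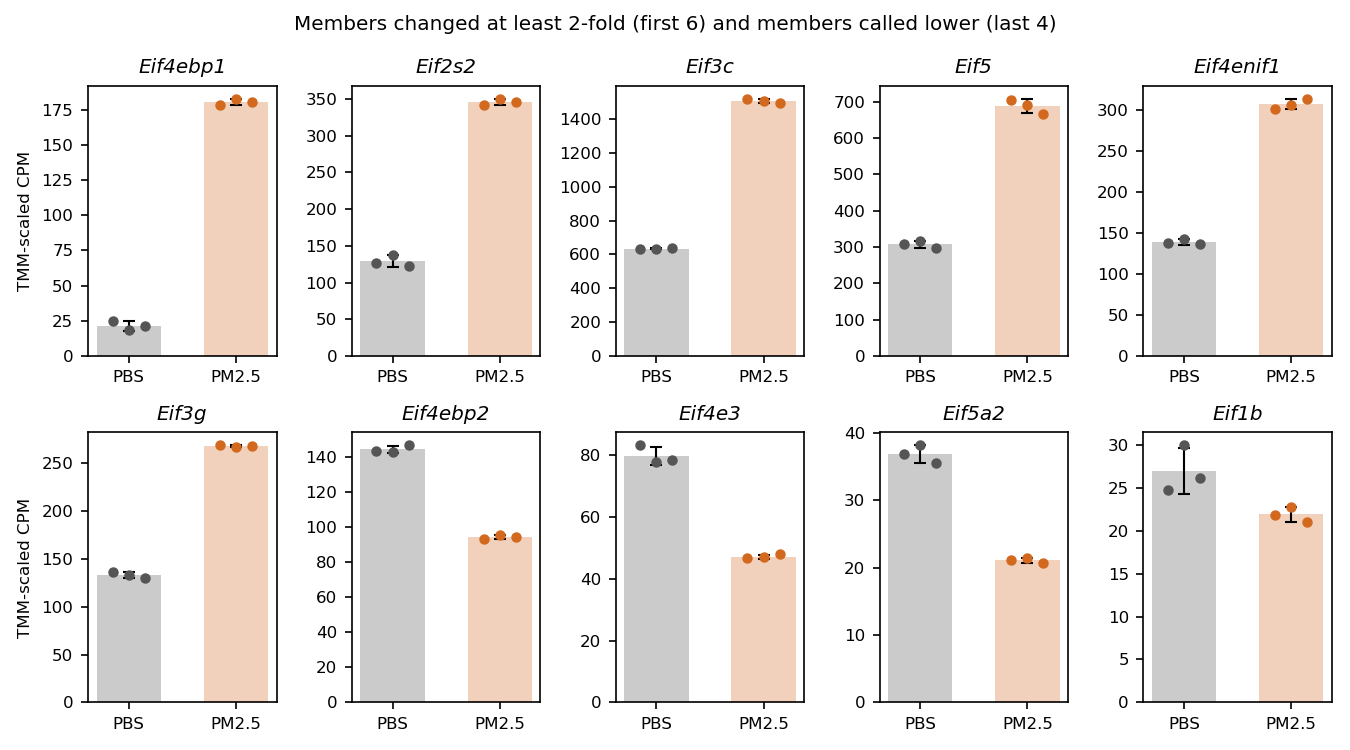
TMM-scaled CPM are plotted in each library for the 6 members that rose at least 2-fold and the 4 members called lower, with bars at the mean of 3 libraries and error bars of 1 SD. In each panel every PM2.5 point lies on the same side of every PBS point, with the smallest gap in Eif1b and the largest relative gap in Eif4ebp1.

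Ratios between paralogues within a library do not depend on how libraries are scaled. For 9 pairs the ratio was taken per kb, and the groups did not overlap for any of them. The share among ratios of other genes was not taken, and single genes did not overlap for 74.9% of all genes tested. With 3 libraries against 3, the exact two-sided permutation test gave p = 0.1 for each pair, the smallest it can give, and 0.1 after adjustment over the 9. The ratio of Eif4ebp1 to Eif4ebp2 changed most, from 0.428 ± 0.0680 to 5.53 ± 0.00927 (SD, n = 3), a 13.0-fold rise or 3.70 on the log2 scale. Eif4e3 relative to Eif4e went from 1.27 ± 0.0112 to 0.553 ± 0.0170, and Eif1b relative to Eif1 from 0.205 ± 0.0236 to 0.0890 ± 0.00643, each with a log2 difference of -1.20. The rarer copy also lost ground for Eif5a2 to Eif5a (0.0150 to 0.00813) and for Eif1ax to Eif1a (0.543 to 0.348). The ratio of Eif4a2 to Eif4a1 went from 0.977 to 1.38, a level that depends on the reads given to the Eif4a-ps4 pseudogene. Small shifts were seen for Eif4e2 to Eif4e (1.91 to 1.62), Eif4g2 to Eif4g1 (1.15 to 1.33) and Eif4g3 to Eif4g1 (0.417 to 0.379). The level of a ratio depends on the transcript lengths used, whereas its difference between groups does not.

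**Figure D4:**
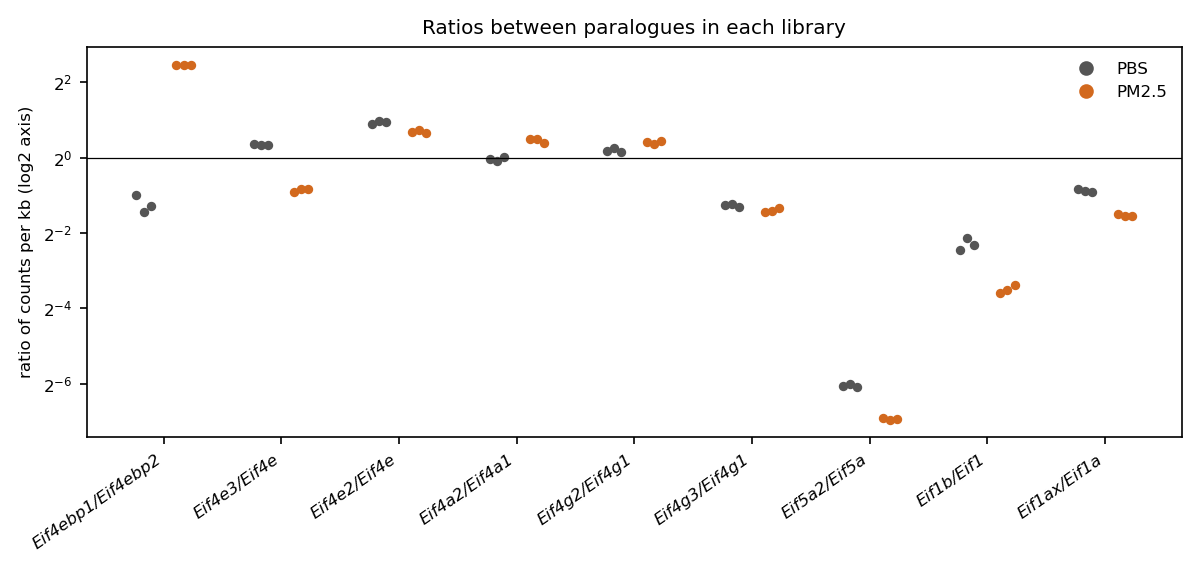
The ratio of counts per kb between 2 paralogues is plotted for each library on a log2 axis, PBS in grey and PM2.5 in orange. The line marks equal levels, which Eif4ebp1/Eif4ebp2 crosses upward and Eif4e3/Eif4e crosses downward, and the groups are separate for all 9 pairs. How often ratios of other genes separate was not examined.

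Of 21 accessory factors of initiation, 13 were called higher and 3 lower, with a median of 0.35. Over all genes tested, 35.2% were called higher and 35.3% lower. The poly(A)-binding protein gene Pabpc1, which circularises mRNA through eIF4G, rose from 2373 ± 33.9 to 3332 ± 21.2 CPM (log2 0.49), and the helicase gene Ddx3x rose by 0.50. Larp1, a repressor of mRNAs with 5′ terminal oligopyrimidine tracts, rose 2.01-fold, from 481 ± 9.11 to 967 ± 15.4 CPM. Mknk2, one of the kinases that phosphorylate eIF4E, fell from 808 ± 27.2 to 399.6 ± 8.55 CPM (log2 -1.02, adjusted p = 1.08e-09).

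The list on eIF2 alpha phosphorylation held the kinases that were left out of the set by name, and their genes did not rise together. Eif2ak2, the kinase PKR, fell 2.40-fold, from 37.9 ± 1.85 to 15.8 ± 0.498 CPM, and Eif2ak4, the amino acid sensor GCN2, fell by 0.35 on the log2 scale. Eif2ak1, the haem-regulated kinase, rose by 0.11, a call lost with library totals (0.05, adjusted p = 0.25), in DESeq2 (adjusted p = 0.0666) and without PBS replicate 1, PBS replicate 3 or PM2.5 replicate 1. Eif2ak3, the kinase PERK, had a value of 0.06 (adjusted p = 0.215), which turned slightly negative with library totals (-0.01) and was called without PM2.5 replicate 2 (0.10, adjusted p = 0.0345). The other genes of the list were all called higher. Atf4, translated when eIF2 alpha is phosphorylated, rose from 185 ± 3.94 to 1023 ± 3.23 CPM, and its targets Ddit3 and Trib3 rose by 4.00 and 4.79 on the log2 scale. Ppp1r15a, the inducible phosphatase subunit that reverses the phosphorylation, was at 33.0, 20.5 and 31.3 CPM against 109, 116 and 186 CPM (log2 2.27, adjusted p = 0.00352), with 1 high PM2.5 library. Its constitutive counterpart Ppp1r15b rose by 0.57, the GCN2 partner Gcn1l1 by 0.61 and Impact, which competes for that partner, by 0.37. In all, 8 of the 11 were called higher and 2 lower, beside 35.2% and 35.3% of all genes tested, with a median of 0.57. The phosphorylation of eIF2 alpha itself was not measured.

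Of 13 elongation and termination factors, 9 rose and 1 fell, with a median of 0.19. For this and the next 2 lists, the shares over all genes tested were 35.2% called higher and 35.3% lower. Etf1, the release factor eRF1, rose 2.08-fold, Eef1e1, a scaffold protein of the tRNA synthetase complex, 2.33-fold, and Hbs1l, a ribosome rescue factor, 1.32-fold. Eef2k, the kinase that inhibits the elongation factor eEF2, fell 2.08-fold. Of 13 genes around mTORC1, 10 rose and none was called lower, with a median of 0.35. The 4 of them with the smallest adjusted p were Mtor (log2 0.35), its partner Mlst8 (0.59), Ddit4 (0.66) and Sesn2. Sesn2 rose from 40.1 ± 1.05 to 192 ± 1.24 CPM (log2 2.26). Ddit4 and Sesn2 are known to restrain the complex. The rest of the 10 were not sorted into genes that activate it and genes that restrain it. Of the 85 ribosomal protein genes tested, 51 were called higher and 4 lower, with a median of 0.15. Sequence shared with other genes was not checked for them, and Rps6 was at only 11.3 CPM under PBS. The members' median of 0.31 stood above that of the ribosomal protein genes and of the elongation factors and below that of the accessory factors, the mTORC1 genes and the eIF2 alpha list, differences that were not tested.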

How the data were processed

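Per the file headers, the authors deposited raw counts per Ensembl gene, and FPKM values, for 6 libraries. The submitters' processing notes list TopHat2 2.0.6 and mm10. How reads were counted (program, annotation, strand, ambiguous reads) is not given in the sources used here. The members and gene lists were chosen with earlier results of these data known.

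Counts were tested in edgeR 4.0.16 (R 4.3.3): filterByExpr (minimum count 10, minimum total 15), TMM scaling, a robust quasi-likelihood F test over all 6 libraries, and Benjamini-Hochberg adjustment over 12967 genes, threshold 0.05. The test was tested on simulated data. An SE is the size of the log2 fold change divided by the root of F. CPM are TMM-scaled, and sums of markers use library totals. Levels per kb use the principal transcript of GENCODE M21, which held all 52 members. The deposited FPKM were not used for levels per kb, because the lengths they imply were over 1.5 times that transcript for 21 tested members. Some are given beside the levels per kb, since the order of genes can depend on the lengths used. Of the tested members, 11 share over 20% of their 50-base words with other genes, and 8 overlap exons on the opposite strand over more than 100 bases.

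Every member could be named. Values per library are given for the 10 largest rises and falls, the paralogue pairs and 5 members fixed by name; of each list, up to 4 called genes with the smallest adjusted p are named, and every gene of the eIF2 alpha list. Alternatives were DESeq2 1.42.0 and its size factors, library totals, other filters, limma 3.58.1 on log2(FPKM + 1) and log2(FPKM + 0.1), a replicate block, and leaving out each library. Libraries of a group differed by more than counting error (chi-square 7.57 to 9.89 per degree of freedom) and were kept as separate replicates.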

Additional observations from a re-analysis of the deposited data

How the results depend on the processing

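Across 14 alternatives, 37 of the 49 tested members kept their call and direction in every one that tested them and 12 did not (Eif4ebp3, among the 37, was not tested with the 5 CPM filter or without PM2.5 replicate 2). The 12 were Eif2d, Eif2b1, Eif2b2, Eif2b4, Eif3f, Eif3h, Eif3i, Eif3k, Eif4g1, Eif4g3, Eif4h and Eif5a. The number called higher ranged from 32 to 37 and the number at least 2-fold from 5 to 6. The number called lower was 4, 5 without a filter on low counts (Eif3f added, adjusted p = 0.0442), and 9 with library totals, with the 5 CPM filter and with limma on log2(FPKM + 1) or log2(FPKM + 0.1); the added genes were Eif2d, Eif2b2, Eif3f, Eif3h and Eif4g3, and Eif3g then fell under 2-fold. Without 1 library at a time, 35 to 37 were higher, 4 to 6 lower and 5 to 6 at least 2-fold. The log2 fold change of Eif3k, 0.00, was -0.06 in those 4 settings (-0.061, -0.063, -0.061 and -0.061) and -0.03 to 0.05 (-0.029 to 0.045) without 1 library; that of Eif2ak3 was -0.01 in the 4 settings (-0.005, -0.006, -0.005 and -0.006). These settings lower all log2 fold changes by a median of about 0.06. The setting with library totals leaves out the TMM factors, which were 1.02 to 1.03 in the PBS libraries and 0.978 in the PM2.5 libraries. The cause of the shift was not tested. With a replicate block, 36 members were higher, 5 lower (Eif3f added, adjusted p = 0.0233) and 6 at least 2-fold. Same-numbered libraries hardly deviated together (r = 0.0134, 0.0072 and 0.045), against r from -0.0374 to 0.0235 between libraries of different numbers. PBS replicate 1 correlated best with PM2.5 replicate 2, and PBS replicates 2 and 3 with the library of the same number. Eif4h was called (0.10, adjusted p = 0.0414) without PM2.5 replicate 3. Every paralogue ratio kept its direction without each library. Depth limits Eif4ebp3, with at most 23 counts in a library.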
